A study of Mus musculus with 15 samples.

Results

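The interaction between Mysm1 genotype and lipopolysaccharide (LPS) was measured in mouse bone marrow-derived dendritic cells (BMDCs), the antigen-presenting cells that grow from marrow in GM-CSF. A culture was included when it had a library without LPS (US) and a library with LPS. This held for 14 of the 15 libraries, from 7 of the 8 cultures: 3 cultures labelled Δ/+ and 4 labelled Δ/DN. The remaining library, a Δ/+ US library, had no LPS partner. For each gene the LPS change was taken within a culture, as LPS minus US on the log2 scale, and the changes of the Δ/DN cultures were compared with those of the Δ/+ cultures.

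All mice carried a CreERT2 transgene and a floxed Mysm1 allele that tamoxifen deletes (Δ). The other allele was wild type in the controls (Δ/+) and encoded a catalytically inactive MYSM1 in the Δ/DN animals, so the controls also kept a single intact copy. Marrow was collected more than 12 weeks after tamoxifen and cultured for 9 days, and the harvested cells were then held for 18 hours with no LPS or with 10 ng/mL LPS. The promoter that drives CreERT2 and the number of mice behind a culture are not given in the sources used here, so p-values refer to the spread between cultures, which may be technical. The series description ties the lettered mouse groups to the genotypes the other way round from the sample titles. Genotypes here follow the titles. Were the description correct instead, each Δ/DN value below would belong to Δ/+ and the reverse.

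LPS, a component of the Gram-negative outer membrane, is recognised by TLR4 with the co-receptors CD14 and MD-2. Signalling through MyD88 and TRIF then activates NF-kB, MAP kinases and interferon regulatory factors, and dendritic cells secrete cytokines, raise costimulatory molecules and shut down parts of their growth and lipid synthesis programme. MYSM1 is a deubiquitinase known for removing ubiquitin from histone H2A, and it is needed for normal blood cell development.

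Mysm1 itself gave no check of the labels, because reads of the inactive allele and the wild-type allele are counted together. Its level was 45.5, 50.7 and 49.6 CPM (reads scaled to library size, after TMM) in the Δ/+ US libraries and 44.1, 44.0 and 40.8 CPM with LPS. In Δ/DN it was 44.8, 41.2, 28.3 and 48.2 CPM without and 34.8, 34.7, 30.2 and 40.2 CPM with LPS. The LPS change of Mysm1 was -0.18 ± 0.10 (SE) in Δ/+ and -0.20 ± 0.09 in Δ/DN on the log2 scale, and the changes differed by -0.02 ± 0.13 (adjusted p = 0.980).

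The 14 libraries held between 37256651 and 104041282 reads. Conventional dendritic cell markers were detected in every group, with none of the 15 at 0 throughout a group. They summed to 1832 to 2284 CPM without and 2441 to 2894 CPM with LPS in Δ/+. In Δ/DN they summed to 2346 to 2560 CPM and 2554 to 3535 CPM, apart between genotypes without LPS only. Macrophage markers summed to between 2425 and 3164 CPM. Δ/DN culture 3 stood apart: its US library had 10.4% of reads from 7SL RNA, against 3.41% to 5.66% in the other paired US libraries. The Y-linked helicase gene Ddx3y lay at 2.01 and 2.91 CPM in that culture, against 52.8 to 78.2 CPM in 5 others, and Xist was at or below 0.0111 CPM in it. Δ/DN culture 4 had no Ddx3y reads and had Xist at 1507 CPM without and 1094 CPM with LPS. Cultures 3 and 4 are also the paired cultures of library set 3, a prefix in the library names whose meaning is not given in the sources used here, and all Δ/+ pairs belong to set 2. Several results are therefore also given without culture 3 or within library set 2. For leaving out culture 4 alone, values of single genes and lists are not given.

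LPS changed the level of 10454 genes in Δ/+ (50.2% of 20834 tested; 4925 rose and 5529 fell) and of 10873 genes in Δ/DN (52.2%; 5203 rose and 5670 fell). In 8858 genes the change was called in both genotypes in the same direction, and in 21 it was called in opposite directions. Across the 20834 genes the fitted changes of the genotypes had a Pearson correlation of 0.865, a description across genes that are not independent. Of the 8858 genes, 5910 (66.7%) had the smaller fitted change in Δ/DN.

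**Figure D1:**
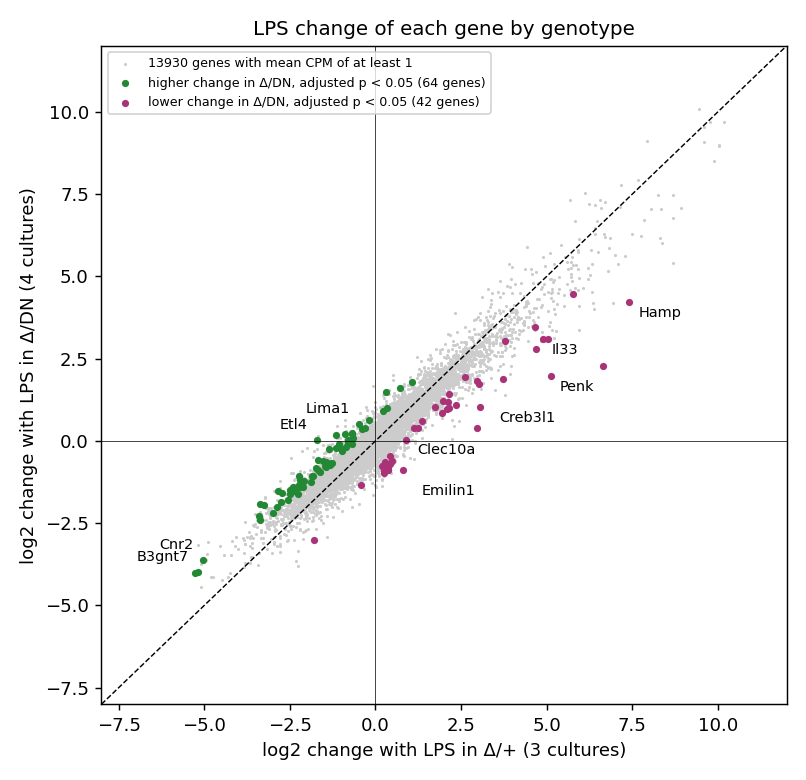
Each point is a gene, with its log2 LPS change in Δ/+ on the x axis and in Δ/DN on the y axis, from edgeR; grey points are genes with a mean of at least 1 CPM, and the dashed line marks equal change. The 64 green genes lie above the line, most of them at negative x values, and the 42 purple genes lie below it, most of them at positive x values.

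The LPS change differed between genotypes in 106 genes (0.509% of those tested; edgeR quasi-likelihood F test, adjusted p under 0.05). In 64 genes (0.307%) the change was higher in Δ/DN and in 42 (0.202%) it was lower. At an unadjusted p under 0.05 there were 2544 genes (12.2%), the background for such counts in the gene lists below. DESeq2 called 556 of the 20834 genes, the background for its counts. The higher group consisted mainly of genes that LPS lowered: 42 of the 64 fell in both genotypes and fell less in Δ/DN, and 13 fell in Δ/+ and were not called in Δ/DN. Their median LPS change was -1.65 in Δ/+ and -0.78 in Δ/DN. The lower group consisted mainly of induced genes, of which 25 of the 42 rose in both genotypes and rose less in Δ/DN, with a median change of 1.96 in Δ/+ and 0.91 in Δ/DN.

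In all 106 genes the changes of the 3 Δ/+ and the 4 Δ/DN cultures did not overlap, which was also true of 2502 of all genes tested (12.0%). The gap between the genotypes was larger with LPS than without it in 52 of the 64 and in 32 of the 42 genes. The genes were selected by the test of the difference, so a gap that differs between states was built in. The same share over all genes is not given, so these counts describe the selected genes only. The median difference of Δ/DN from Δ/+ was 0.00 without and 0.80 with LPS in the 64 genes, and 0.20 without and -0.98 with LPS in the 42 genes (log2, edgeR model without the culture term).

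The number of calls rested on pairing the libraries of a culture. With US and LPS libraries taken as independent the same test called 0 genes, with 1545 genes at an unadjusted p under 0.05. Leaving out a single culture gave 6 to 894 calls: 6 without Δ/+ culture 2, 8 without Δ/+ culture 1 or without Δ/DN culture 4, 10 without Δ/DN culture 2, 64 without Δ/+ culture 3, 243 without Δ/DN culture 1 and 894 without Δ/DN culture 3. Penk, Creb3l1 and Emilin1 stayed called in all 7 leave-outs. Most of the 106 genes did not: 15 stayed called in 1 leave-out, 47 in 2 and 33 in 3. Nedd4, Tanc2, Cp, Snord3a, Vegfa, Rrp12 and Pecam1, described below, stayed called in 2. Of the 33 named genes called, 6 stayed called without Δ/DN culture 4.

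**Figure D2:**
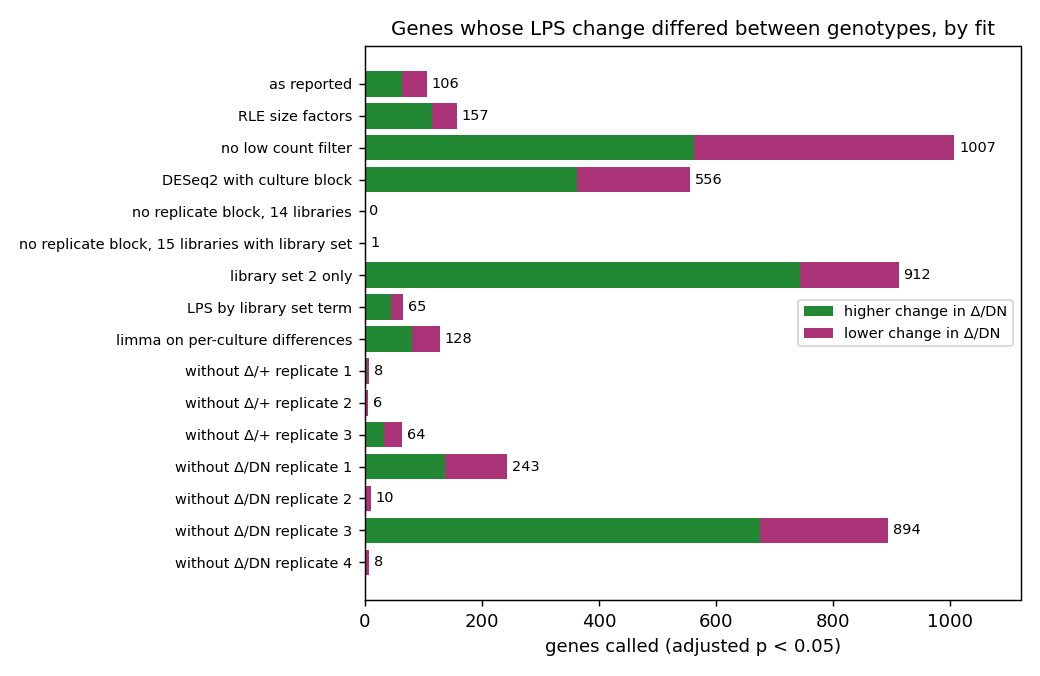
Bars give the number of genes whose LPS change differed between genotypes (adjusted p under 0.05) in each fit, split into higher (green) and lower (purple) change in Δ/DN. The count was 106 as reported, 0 with no replicate block in the 14 libraries and 912 in library set 2 alone.

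Promoters are shown for 4 named genes chosen because they hold a motif match, and most named genes with a sequence held none. The 4 do not show how motifs divide between the groups. Matches in Acvr1b (kappaB, lower group) and Chsy1 (CRE half-site, higher group) are not shown. The windows are the 250 bases before the RefSeq start site on GRCm38.p6, 5′ to 3′ on the gene's strand, and capitals mark motif matches on either strand. Hamp and Cp, from the lower group, each hold an AP-1 match (TGANTCA). From the higher group, Flnc holds a kappaB match and Rcc2 a CRE half-site (TGACG) and a kappaB match.
Hamp (chr7:30944030-30944279, minus strand): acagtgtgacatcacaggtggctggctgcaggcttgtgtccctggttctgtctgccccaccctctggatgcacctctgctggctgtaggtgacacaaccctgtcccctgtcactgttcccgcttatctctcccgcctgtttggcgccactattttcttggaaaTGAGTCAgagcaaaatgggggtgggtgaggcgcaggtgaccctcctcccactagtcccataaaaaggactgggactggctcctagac
Cp (chr3:19956804-19957053, plus strand): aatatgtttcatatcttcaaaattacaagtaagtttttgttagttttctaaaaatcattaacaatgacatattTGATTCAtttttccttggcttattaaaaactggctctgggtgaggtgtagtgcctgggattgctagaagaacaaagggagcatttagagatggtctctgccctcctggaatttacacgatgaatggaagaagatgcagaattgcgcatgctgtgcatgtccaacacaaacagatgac
Flnc (chr6:29432903-29433152, plus strand): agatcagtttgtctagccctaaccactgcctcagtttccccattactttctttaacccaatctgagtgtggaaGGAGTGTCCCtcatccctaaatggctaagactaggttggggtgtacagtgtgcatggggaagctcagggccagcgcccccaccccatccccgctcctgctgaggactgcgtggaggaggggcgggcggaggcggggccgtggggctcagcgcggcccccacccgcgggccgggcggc
Rcc2 (chr4:140701223-140701472, plus strand): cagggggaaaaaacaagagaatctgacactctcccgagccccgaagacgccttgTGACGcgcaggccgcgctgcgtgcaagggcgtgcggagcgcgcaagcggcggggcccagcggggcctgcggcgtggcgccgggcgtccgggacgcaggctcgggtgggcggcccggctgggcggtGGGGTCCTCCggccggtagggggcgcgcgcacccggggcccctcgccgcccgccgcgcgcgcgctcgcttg
A sequence was matched for 54 of the 64 and 24 of the 42 genes. A kappaB match was present in 13% of the former and 25.0% of the latter (6 of 24), against 7.01% of all 27025 promoters. These 27025 belong to all listed genes, not only to the genes tested here. The AP-1 letters were found in 5.56% and 12.5%, against 6.87% of all. The CRE half-site was found in 25.9% and 8.33%, against 17.9%, and the interferon-stimulated response element in 1.85% and 4.17%, against 3.04%. A match describes letters in this window only.

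Penk had the smallest p among the genes with a lower LPS change in Δ/DN. Penk, which encodes proenkephalin, the precursor of opioid peptides, was at 0.88, 1.04 and 1.04 CPM without LPS in Δ/+ and reached 34.4, 33.2 and 35.8 CPM with it. In Δ/DN it started at 0.757, 1.38, 1.14 and 0.795 CPM and reached 5.38, 6.36, 3.74 and 1.64 CPM. The genotypes thus overlapped without LPS and were apart with it. The LPS change was 5.12 ± 0.27 in Δ/+ and 1.96 ± 0.22 in Δ/DN, a difference of -3.16 ± 0.33 (adjusted p = 0.00688).

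Il33, an alarmin of the IL-1 family, rose from 3.69, 2.37 and 1.57 CPM to 84.6, 84.4 and 48.8 CPM in Δ/+. In Δ/DN it rose from 1.53, 0.474, 1.52 and 0.398 CPM to 17.9, 4.81, 10.3 and 2.31 CPM. All Δ/DN levels were below all Δ/+ levels in both states, and the gap was wider with LPS. The changes differed by -1.80 ± 0.24 (adjusted p = 0.0112), and by -1.39 (adjusted p = 0.00476) within library set 2.

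Hamp encodes hepcidin, the hormone that restrains iron export, and Cp encodes ceruloplasmin, a copper-binding ferroxidase. Hamp had 2 to 17 reads in the US libraries and rose to 8.53, 12.1 and 5.55 CPM in Δ/+ and to 2.69, 2.09, 4.5 and 1.96 CPM in Δ/DN, a difference of changes of -3.21 ± 0.50 (adjusted p = 0.0205). Without LPS, Hamp had 4, 2 and 5 reads in Δ/+ and 17, 10, 17 and 8 in Δ/DN. Its difference of Δ/DN from Δ/+ was 1.64 without and -1.63 with LPS (log2, edgeR model without the culture term). The US libraries near the floor thus supply a large part of its difference of changes. Hamp has a close paralog, Hamp2, so its reads could be shared. Cp rose from 0.494, 0.790 and 1.09 CPM to 26.1, 46.1 and 56.5 CPM in Δ/+, and from 0.900, 3.18, 1.23 and 1.14 CPM to 27.3, 49.0, 30.9 and 25.2 CPM in Δ/DN. The Cp levels with LPS overlapped between genotypes, and the within-culture changes did not, differing by -1.30 ± 0.22 (adjusted p = 0.0290).

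Emilin1, Col5a3 and Mmp2, which act in the extracellular matrix, were also named. Emilin1, an elastic-fibre glycoprotein, rose in Δ/+ from 15, 14 and 19.9 CPM to 32.7, 30.2 and 22.8 CPM. In Δ/DN it fell from 24, 23.7, 21.4 and 28.4 CPM to 12.8, 13.8, 10.5 and 15.9 CPM. After TMM scaling LPS therefore moved it in opposite directions, by 0.81 ± 0.15 and -0.89 ± 0.13. The changes differed by -1.70 ± 0.20 (adjusted p = 0.00688).

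Col5a3, a chain of type V collagen, was at 0.389 to 1.19 CPM in the US libraries and reached 21.9, 15.6 and 16.5 CPM in Δ/+ and 5.52, 4.12, 11.5 and 4.51 CPM in Δ/DN with LPS. All Δ/DN levels with LPS were below all Δ/+ levels, and the changes differed by -1.95 ± 0.27 (adjusted p = 0.0134). Mmp2, the gelatinase that cleaves collagen IV, had higher US levels in all Δ/DN than in all Δ/+ cultures, and the levels with LPS overlapped. It rose from 4.18, 1.90 and 2.35 CPM to 25.1, 21.6 and 17.1 CPM in Δ/+, and from 7.88, 25.6, 5.30 and 15.1 CPM to 33.0, 81.4, 19.0 and 48.1 CPM in Δ/DN. The changes of Mmp2 differed by -1.17 ± 0.19 (adjusted p = 0.0289). Among 37 genes of axon guidance and matrix remodelling, Mmp2 was the 1 gene called by edgeR, and the list as a whole lay in the other direction, with a median difference of 0.22. At an unadjusted p under 0.05, 12 of the 37 were higher and 4 lower, and DESeq2 called 7 and limma 2. Without Δ/DN culture 3 edgeR called 10 higher and 1 lower, against 3.27% and 1.06% of all genes. The 12 stromal and endothelial markers summed to 37.6 to 54.6 CPM without and 130 to 167 CPM with LPS in Δ/+, and to 18.5 to 31.6 CPM and 59.0 to 98.3 CPM in Δ/DN. These sums did not overlap between genotypes in either state. In each genotype 4 of the 12 markers were called as rising with LPS and 1 as falling. Their differences of changes ran from -1.03 to 1.11, so the sums do not measure stromal cells alone. The part of the sums in the values of the matrix genes, Il33 and Penk was not tested.

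Creb3l1, a membrane-bound transcription factor of the endoplasmic reticulum, was at 1.28 to 1.94 CPM in all US libraries. It reached 19.1, 21.2 and 19.4 CPM in Δ/+ and 8.79, 6.32, 6.69 and 3.92 CPM in Δ/DN, and the changes differed by -1.83 ± 0.21 (adjusted p = 0.00688). Acp5, tartrate-resistant acid phosphatase, rose to 122, 134 and 70.9 CPM in Δ/+ and to 58.7, 62.3, 71.3 and 34.1 CPM in Δ/DN. The changes of Acp5 differed by -1.28 ± 0.18 (adjusted p = 0.0155), with 1 Δ/DN library just above the lowest Δ/+ library.

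Dtx2, Acvr1b, Igsf8 and Clec10a were also named with a lower change. Dtx2, a Deltex ubiquitin ligase of the Notch pathway, had a difference of changes of -1.14 ± 0.19 (adjusted p = 0.0319). Acvr1b, the activin receptor ALK4, rose in Δ/+ by 0.89 and was not called in Δ/DN (0.01), a difference of -0.88 ± 0.16 (adjusted p = 0.0373). For Igsf8, an immunoglobulin-domain partner of tetraspanins, the difference was -1.08 ± 0.19 (adjusted p = 0.0373). Clec10a, a galactose-binding lectin of dendritic cells and macrophages, rose by 0.49 in Δ/+ and fell by 0.61 in Δ/DN (difference -1.10 ± 0.19, adjusted p = 0.0373). Within library set 2 the calls of Clec10a and Igsf8 were lost (adjusted p = 0.107 and 0.0824).

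**Figure D3:**
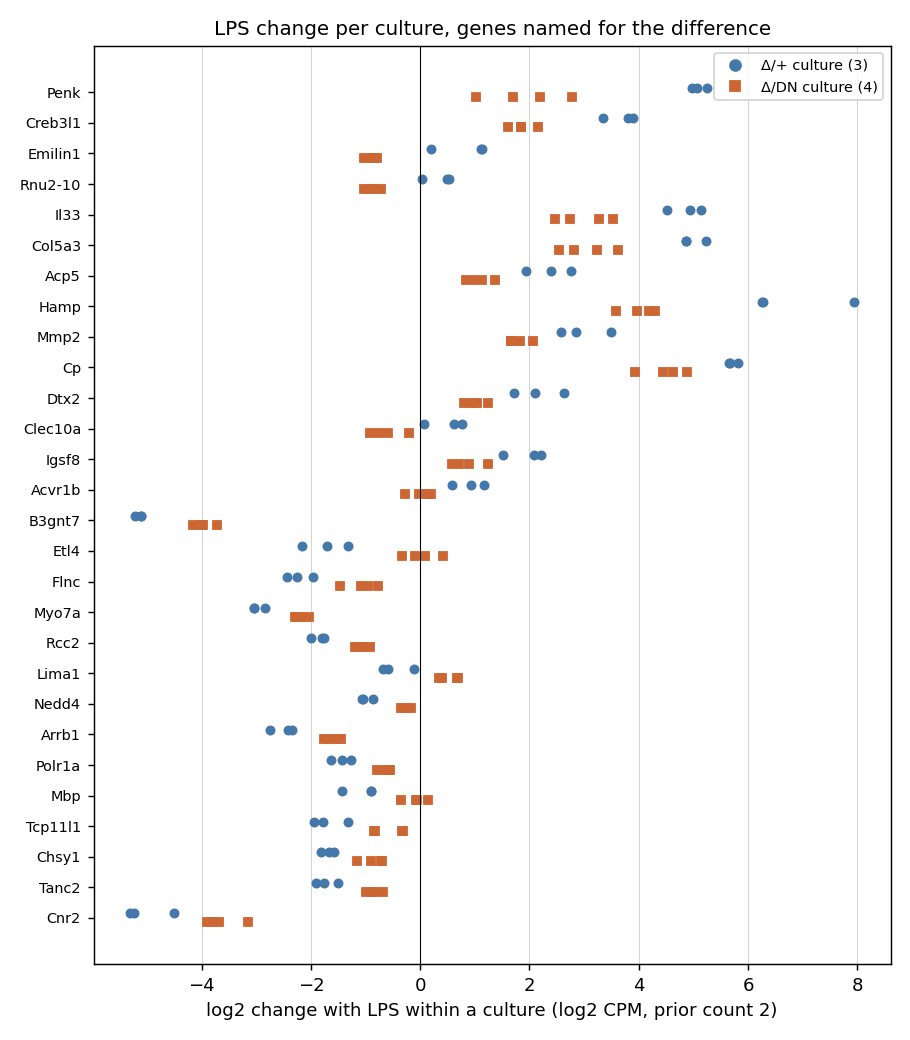
Points are the log2 LPS change of single cultures (log2 CPM with a prior count of 2) for the genes named in each direction; circles are the 3 Δ/+ and squares the 4 Δ/DN cultures. In each gene shown the circles and squares do not overlap. Penk and Hamp are the furthest apart, and Hamp is near the floor in the US libraries.

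The genes with a higher LPS change in Δ/DN included several that LPS silenced almost fully in Δ/+. B3gnt7, a glycosyltransferase that extends keratan sulfate and related chains, dropped from 31.3, 27.2 and 42.4 CPM to 0.880, 0.763 and 1.11 CPM in Δ/+. In Δ/DN it dropped from 28.7, 24.5, 35.1 and 30.3 CPM to 1.79, 1.35, 2.16 and 2.27 CPM. The US levels overlapped and the LPS levels did not, with a difference of changes of 1.21 ± 0.16 (adjusted p = 0.0112).

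Cnr2, the cannabinoid receptor of immune cells, dropped from 20.5, 20.0 and 28.2 CPM to 0.880, 0.477 and 0.724 CPM in Δ/+ and from 28.3, 36.5, 24.7 and 41.5 CPM to 1.87, 2.62, 1.90 and 4.65 CPM in Δ/DN. The LPS levels were again apart, and the changes differed by 1.42 ± 0.24 (adjusted p = 0.0299). Arrb1, beta-arrestin 1, an adaptor that ends signalling of G protein-coupled receptors, showed the same order, with 38.2, 28.0 and 38.8 CPM after LPS in Δ/+ and 75.1, 112, 54.3 and 91.2 CPM in Δ/DN. The difference for Arrb1 was 0.90 ± 0.14 (adjusted p = 0.0210).

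Flnc, Myo7a and Lima1, which bind or move along actin, were named in this direction too. Flnc, the actin cross-linker filamin C, fell from 31.5, 24.4 and 40.9 CPM to 8.02, 5.11 and 7.49 CPM in Δ/+ and from 39.0, 48.1, 20.7 and 26.6 CPM to 14, 28, 9.73 and 13.7 CPM in Δ/DN, a difference of 1.15 ± 0.17 (adjusted p = 0.0205). Myo7a, an unconventional myosin, ended at 6.62 to 8.42 CPM in Δ/+ and at 12.6 to 13.6 CPM in Δ/DN from like US levels (difference 0.79 ± 0.12, adjusted p = 0.0205). Lima1, an actin-bundling LIM protein, fell in Δ/+ from 75.7, 58.8 and 68.9 CPM to 69.7, 38.9 and 42.9 CPM. In Δ/DN it rose from 83.5, 75.3, 81.0 and 79.8 CPM to 109, 95.5, 131 and 127 CPM, the opposite direction (difference 0.99 ± 0.15, adjusted p = 0.0205).

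The US levels of Polr1a and Tanc2 did not overlap between genotypes. Polr1a, the largest subunit of RNA polymerase I, which transcribes ribosomal RNA genes, fell from 61.5, 76.2 and 75.7 CPM to 22.7, 24.5 and 31.6 CPM in Δ/+. Its Δ/DN levels went from 47.8, 44.4, 42.0 and 48.4 CPM to 27.7, 30.3, 26.1 and 32.4 CPM. The genotypes were apart without LPS and overlapped with it, so this is a gene whose gap closed (difference 0.79 ± 0.13, adjusted p = 0.0216). Tanc2, a scaffold protein, likewise started lower in Δ/DN, at 11.1 to 21.4 against 27.7 to 32.9 CPM (difference 0.89 ± 0.15, adjusted p = 0.0290).

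Rcc2, a regulator of chromosome segregation and Rac signalling, had like US levels and LPS levels of 20.4 to 26.5 CPM in Δ/+ and 34.9 to 49.7 CPM in Δ/DN (difference 0.78 ± 0.12, adjusted p = 0.0205). Nedd4, a HECT ubiquitin ligase, differed by 0.74 ± 0.12 (adjusted p = 0.0210), and Chsy1, a chondroitin sulfate synthase, by 0.82 ± 0.14 (adjusted p = 0.0290). Etl4 fell in Δ/+ from 6.46, 3.79 and 5.78 CPM to 2.57, 0.827 and 1.76 CPM and was not called in Δ/DN, where it stayed between 5.4 and 9.63 CPM in both states (difference 1.74 ± 0.25, adjusted p = 0.0155). Mbp, known as a myelin protein with other products in immune cells, fell by 1.07 in Δ/+ and was not called in Δ/DN (-0.08; difference 0.99 ± 0.16, adjusted p = 0.0220). Tcp11l1 differed by 1.10 ± 0.18 (adjusted p = 0.0289).

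**Figure D4:**
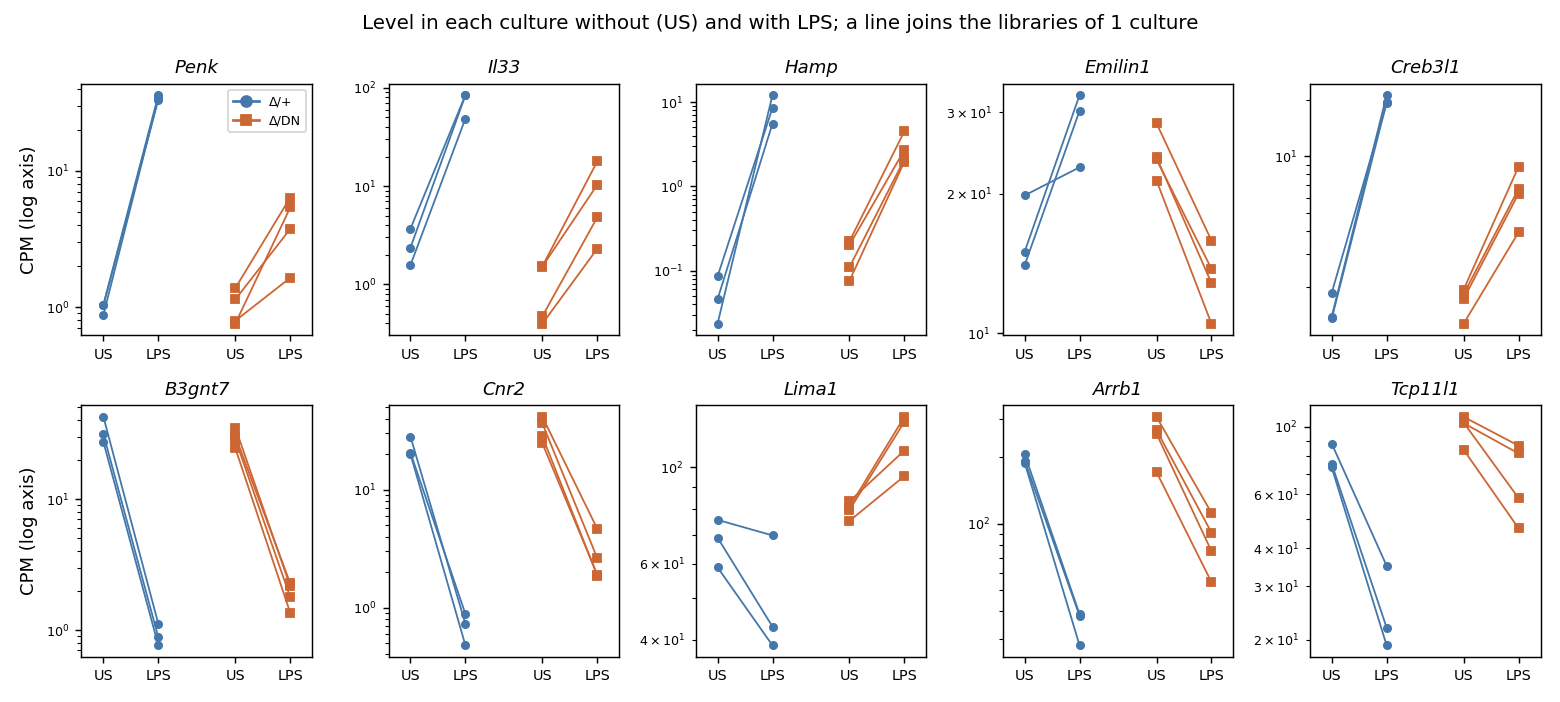
Levels in CPM on log axes for 10 named genes, each line joining the US and the LPS library of 1 culture (blue circles Δ/+, orange squares Δ/DN). Penk lines start together and end apart, at 33.2 to 35.8 CPM in Δ/+ and 1.64 to 6.36 CPM in Δ/DN, and the Emilin1 and Lima1 lines slope in opposite directions.

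Of the 21 genes with opposite calls, 10 were also called for the difference. Besides Emilin1, Lima1 and Clec10a they included Pdcd1lg2, which encodes PD-L2, a ligand that restrains T cells through PD-1. It went from 80.1, 65.8 and 81.4 CPM to 61.7, 49.6 and 73.7 CPM in Δ/+, a fall, and from 76.8, 72.2, 93.7 and 57.7 CPM to 106, 109, 105 and 75.3 CPM in Δ/DN, a rise (difference 0.71 ± 0.13, adjusted p = 0.0376). The direction of small changes depends on TMM scaling. Its factors were 1.16 to 1.25 in US and 0.743 to 0.783 in LPS libraries of Δ/+, and 1.03 to 1.36 and 0.789 to 0.934 in Δ/DN. Before scaling, Pdcd1lg2 had 6488 of 63290541 reads without and 6471 of 77313333 with LPS in Δ/DN culture 1, a lower share.

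Small nuclear RNA genes appeared among the calls in 1 direction. Of 123 tested, 8 had a lower LPS change in Δ/DN and 0 a higher one, and the median difference over the 123 was -0.37, against 0.02 over all genes. Rnu2-10, a gene for the U2 RNA of the spliceosome, changed from 26.2, 20.8 and 23.1 CPM to 37.8, 21.2 and 32.5 CPM in Δ/+ and from 26.2, 12.1, 40.0 and 7.72 CPM to 13.8, 5.92, 24.2 and 4.29 CPM in Δ/DN (difference -1.23 ± 0.15, adjusted p = 0.00688). The other 7 carry predicted names, and such genes have near-identical copies between which reads could be shared, so the 8 are not separate measurements. Snord3a, a gene for the U3 RNA of ribosomal RNA processing, moved likewise (difference -0.90 ± 0.17, adjusted p = 0.0447). The share of reads from 7SL RNA, another small non-coding RNA, went from 5.15% to 5.66% without LPS to 4.24% to 5.0% with LPS in Δ/+, and from 3.41% to 10.4% to 1.61% to 4.03% in Δ/DN. The summed share of snRNA reads was 0.453% to 0.492% without and 0.371% to 0.402% with LPS in Δ/+, and 0.383% to 0.501% and 0.215% to 0.396% in Δ/DN. These shares are of reads before TMM scaling, unlike the CPM values and changes. The snRNA share fell with LPS in Δ/+, where the scaled changes of the 8 genes were 0.02 to 0.58. The part of these shares in the calls was not tested.

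The classical LPS programme was induced in both genotypes. Of 37 inflammatory cytokine and chemokine genes, 36 rose in Δ/+ and 36 in Δ/DN, with a median change of 5.16 and 5.59. By edgeR, Il33 was the 1 gene of the list whose change differed, with 3 higher and 3 lower at an unadjusted p under 0.05 and 2 called by DESeq2. All 52 interferon-stimulated genes tested rose in both genotypes (median 3.16 and 2.85), as did all 20 guanylate-binding protein and immunity-related GTPase genes (3.73 and 3.10) and all 23 MHC class I presentation genes (1.67 and 1.29). In these 3 lists 0 genes were called for the difference by edgeR. At an unadjusted p under 0.05 there were 1 of 52, 3 of 20 and 6 of 23 genes, against 12.2% of all genes. The interferon-stimulated count was thus below that share. Each of these genes had the lower change in Δ/DN, and DESeq2 called 0, 2 and 0. The median difference of the interferon-stimulated genes was -0.22 with all cultures, 0.15 without culture 3 and 0.39 in library set 2. In set 2, which holds only cultures 1 and 2 of Δ/DN, 9 of the 52 were called, all higher in Δ/DN. Over all genes set 2 called 3.51% higher and 0.799% lower, so 81.5% of its calls were higher. For the GTPase genes the medians were -0.43, -0.02 and 0.30, with 0 called in either refit, and for MHC class I they were -0.31, -0.11 and -0.02, with 0 called without culture 3 and 1 higher in set 2.

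Δ/DN culture 3 had the lowest list median in each of these 4 lists. Its cytokine median was 4.61, against 5.67 to 5.98 in the other Δ/DN cultures and 5.15 to 5.26 in Δ/+. Its interferon-stimulated genes had a median change of 1.66, against 2.77 to 3.53 in the other 6 cultures. The US library of this culture stood apart as well. Cxcl10, an interferon-induced chemokine, was at 145 CPM in its US library against 9.27 to 14.4 CPM in the other Δ/DN and 42.5 to 61.0 CPM in the Δ/+ US libraries. Irf7, a transcription factor of the interferon response, was at 175 CPM there against 15.4 to 55.2 CPM elsewhere.

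**Figure D5:**
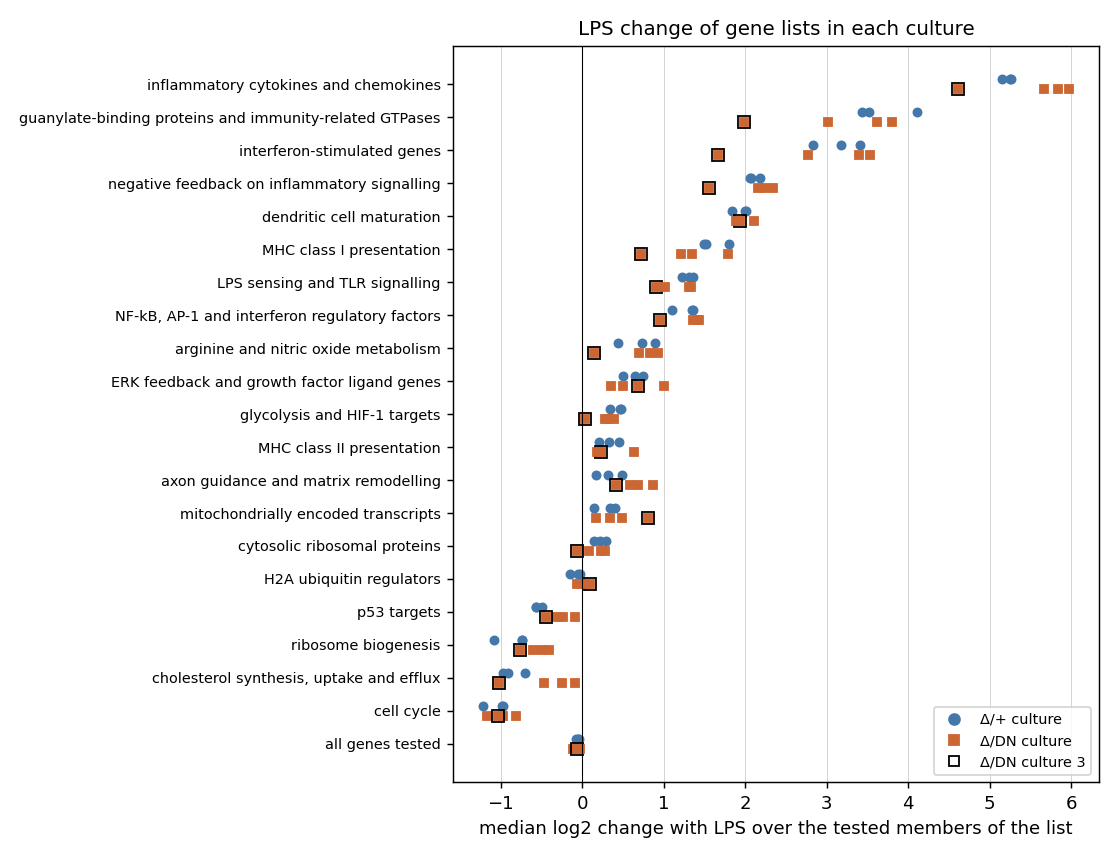
Each point is the median log2 LPS change over the tested members of a gene list in 1 culture (circles Δ/+, squares Δ/DN, with Δ/DN culture 3 outlined). Culture 3 is the lowest square for cytokines (4.61) and interferon-stimulated genes (1.66), and for cholesterol genes it lies at -1.01, below the circles, with the other 3 Δ/DN cultures at -0.46 to -0.08.

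Without culture 3, several cytokine genes had a higher LPS change in Δ/DN. This refit is no separate test, because culture 3 had the lowest median change of the cytokine, TLR signalling and cholesterol lists. Lists are not given for the other leave-outs, which called between 6 and 243 genes in all. The refit without culture 3 called 894 of 20658 genes (4.33%), 675 of them higher (3.27%) and 219 lower (1.06%). Among 37 cytokine genes it called 9 higher and 1 lower. Il1b, an inflammasome-released cytokine, changed by 6.04, 5.74 and 6.59 in the Δ/+ cultures and by 8.21, 8.03, 5.54 and 8.11 in Δ/DN cultures 1 to 4. With all cultures the difference was 1.41 ± 0.72 (adjusted p = 0.520), and without culture 3 it was 2.00 ± 0.19 (adjusted p = 0.00145). Its levels with LPS overlapped, at 5511 to 8576 CPM in Δ/+ and 5088 to 6709 CPM in Δ/DN, and its US levels were 89.0 to 103 CPM in Δ/+ and 22.6, 20.4, 125 and 18.5 CPM in Δ/DN. The higher change thus went with lower starting levels in 3 of the 4 Δ/DN cultures.

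Cd14, the LPS co-receptor, followed the same order. It went from 189, 246 and 165 CPM to 862, 900 and 891 CPM in Δ/+, and from 56.6, 53.9, 163 and 60.6 CPM to 664, 690, 661 and 706 CPM in Δ/DN. The levels with LPS were lower in all Δ/DN libraries, and the change was 1.05 ± 0.40 higher with all cultures (adjusted p = 0.328) and 1.43 ± 0.14 higher without culture 3 (adjusted p = 0.00145). Of 37 genes of LPS sensing and TLR signalling, 0 were called with all cultures by edgeR. At an unadjusted p under 0.05 there were 11, against 12.2% of all genes, and DESeq2 called 3. Without culture 3, 8 were called and all were higher in Δ/DN. Among these, Tlr4, the LPS receptor, changed by -1.38, -1.72 and -1.14 in Δ/+ and by -0.65, -0.63, -1.20 and -0.77 in Δ/DN (difference 0.60, adjusted p = 0.153, and 0.73 ± 0.14, adjusted p = 0.0129, without culture 3).

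Tnf, a master inflammatory cytokine, rose from 81.8, 81.7 and 93.2 CPM to 2654, 1725 and 3511 CPM in Δ/+. In Δ/DN it rose from 52.4, 42.4, 109 and 49.1 CPM to 3484, 2666, 2701 and 2498 CPM, so its levels with LPS overlapped. Its changes differed by 0.70 ± 0.34 (adjusted p = 0.443) with all cultures and by 1.01 ± 0.20 (adjusted p = 0.0168) without culture 3. Cxcl10 differed by 0.75 ± 0.94 (adjusted p = 0.839) with all cultures and by 1.46 ± 0.19 (adjusted p = 0.00312) without culture 3. Its levels with LPS were lower in all Δ/DN libraries, at 2413 to 3543 CPM against 4026 to 4804 CPM in Δ/+. Without LPS it was at 42.5 to 61.0 CPM in Δ/+ and at 14.4, 9.27, 145 and 12.4 CPM in Δ/DN. Library set 2 alone called 912 of 21153 genes (4.31%; 743 higher, 3.51%, and 169 lower, 0.799%), and within it the differences of Il1b, Cxcl10, Cd14 and Tnf were 2.01, 1.60, 1.46 and 1.14, all with an adjusted p under the threshold.

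Il10, an anti-inflammatory cytokine, had 0 to 8 reads in each US library and rose to 35.9, 46.9 and 11.1 CPM in Δ/+ and to 4.52, 2.39, 8.84 and 2.14 CPM in Δ/DN. The levels with LPS did not overlap, and the difference of changes, -1.85 ± 0.90, missed the threshold (adjusted p = 0.444). Il6 differed by 0.64 ± 0.61 (adjusted p = 0.772), Il12b, a subunit of IL-12, by -0.46 ± 0.26 (adjusted p = 0.522) and Nos2, the inducible nitric oxide synthase, by -1.07 ± 0.80 (adjusted p = 0.693). With LPS, Il6 was at 2268 to 3116 CPM in Δ/+ and at 1116 to 2258 CPM in Δ/DN. Nos2 with LPS was at 1773 to 3204 CPM in Δ/+ and at 520 to 1514 CPM in Δ/DN. Both were thus lower in all Δ/DN libraries with LPS, and the Il12b levels overlapped. For Ifnb1, interferon beta, the difference was -0.11 ± 1.36 (adjusted p = 0.988), with 0 to 14 reads in each US library. Cd40, a costimulatory receptor, differed by -0.13 ± 0.43 (adjusted p = 0.952), Irf7 by -0.26 ± 0.81 (adjusted p = 0.950) and Arg1, arginase 1, by -0.09 ± 0.16 (adjusted p = 0.901). Within library set 2 the sign turned for Irf7 (0.71), Cd40 (0.34), Arg1 (0.13), Ifnb1 (1.56) and Nos2 (0.02), none of which passed the threshold there (adjusted p = 0.134, 0.309, 0.688, 0.564 and 0.989). These misses do not show equal responses.

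Cholesterol genes moved apart once culture 3, the culture with their lowest median change, was left out. With all cultures 19 of 26 genes of cholesterol synthesis, uptake and efflux fell in Δ/+ and 14 in Δ/DN, with medians of -0.86 and -0.47. edgeR called 0 of the 26 for the difference, with 10 at an unadjusted p under 0.05, all higher in Δ/DN, and DESeq2 called 2. Without culture 3 it called 14 of 26, all higher in Δ/DN, against 3.27% of all genes. By culture the list median was -0.70, -0.97 and -0.91 in Δ/+ and -0.46, -0.08, -1.01 and -0.25 in Δ/DN, so culture 3 lay below the Δ/+ cultures and the other 3 above them.

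The member named here for cholesterol was chosen after its values were seen. Fdps, which makes farnesyl pyrophosphate, changed by -0.71, -1.01 and -0.79 in Δ/+ and by -0.13, 0.34, -0.85 and 0.09 in Δ/DN (difference 0.70, adjusted p = 0.237; 0.94 ± 0.13, adjusted p = 0.00421, without culture 3).

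Ribosome biogenesis genes fell in both genotypes, 38 of 46 in Δ/+ and 37 of 46 in Δ/DN, with medians of -0.87 and -0.56. The median difference was 0.27, against 0.02 over all genes, and edgeR called 2 genes (DESeq2 3; 17 at an unadjusted p under 0.05, all higher), Polr1a and Rrp12, a factor of ribosomal subunit export (0.82 ± 0.15, adjusted p = 0.0375). Rrp12 was at 33.7 to 41.1 CPM without LPS in Δ/+ and at 24.8 to 26.3 CPM in Δ/DN. With LPS its levels overlapped, at 7.52 to 8.99 CPM and 7.93 to 10.9 CPM, so its gap closed like that of Polr1a. In 12 of the 46 all Δ/DN changes lay above all Δ/+ changes, and in 0 below, where the background was 7.57% above and 4.44% below. Without culture 3, 9 of 46 were called, all higher in Δ/DN. Cell cycle genes fell too (34 of 46 in Δ/+, 37 in Δ/DN), with 0 called for the difference by edgeR, 16 at an unadjusted p under 0.05, 2 by DESeq2 and 1 by edgeR without culture 3.

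Vegfa, the vascular growth factor, was called in the lists of glycolysis and HIF-1 targets and of ERK feedback and growth factor ligands. It fell in Δ/+ from 121, 173 and 81.4 CPM to 81.4, 99.2 and 51.0 CPM and was not called in Δ/DN, where it went from 42.4, 35.1, 52.3 and 22.1 CPM to 46.2, 47.2, 44.7 and 31.2 CPM (difference 0.89 ± 0.16, adjusted p = 0.0375). The Δ/DN levels were below the Δ/+ levels in both states and the gap narrowed with LPS. Vegfa was the 1 gene edgeR called in each list. Of 35 glycolysis and HIF-1 genes, 8 were at an unadjusted p under 0.05, DESeq2 called 3, and without culture 3 edgeR called 2 higher and 2 lower. Of 19 ERK feedback genes these counts were 6, 2, and 2 higher and 1 lower. Over all genes 12.2% were at an unadjusted p under 0.05.

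Pdcd1lg2 was the 1 gene edgeR called of 32 dendritic cell maturation genes and of 37 genes of negative feedback. In the maturation list 11 genes were at an unadjusted p under 0.05, DESeq2 called 5, and without culture 3 edgeR called 3 higher and 2 lower. In the feedback list these counts were 6, 2, and 5 higher and 0 lower. In the dendritic cell maturation list 26 genes rose in Δ/+ and 30 in Δ/DN, with medians of 1.96 and 2.04.

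In the 7 other pathway lists edgeR called 0 genes for the difference. The number at an unadjusted p under 0.05 and called by DESeq2 was 5 and 1 of 33 NF-kB, AP-1 and interferon regulatory factors, 4 and 1 of 15 MHC class II genes, 6 and 3 of 13 arginine and nitric oxide genes, and 9 and 1 of 32 p53 targets. It was 3 and 1 of 25 regulators of H2A ubiquitin, and 0 and 0 of 78 cytosolic ribosomal protein genes and of 13 mitochondrially encoded transcripts. The share of all genes at an unadjusted p under 0.05 was 12.2%. Without culture 3 edgeR called 5 higher and 1 lower of the 13 arginine and nitric oxide genes, 3 higher and 1 lower of the p53 targets, 1 higher each of the MHC class II genes and of the transcription factors, and 2 lower of the H2A ubiquitin regulators. It called 0 ribosomal protein genes and 0 mitochondrial transcripts. The members of smallest p with all cultures, given as values, included H2-Eb2, an MHC class II gene (1.18 ± 0.24, adjusted p = 0.0514), and Rybp, a subunit of the Polycomb complex that places ubiquitin on H2A (-0.81 ± 0.18, adjusted p = 0.0670).

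Over all LPS-responsive genes the size of the response was summarised by 1 slope per culture, the regression through the origin of its changes on the mean of the Δ/+ cultures other than itself (12448 genes). Because the reference was the Δ/+ mean, a slope reflects likeness to the Δ/+ pattern as well as size. That mean also held fewer cultures for a Δ/+ than for a Δ/DN culture. The slopes were 0.927, 0.968 and 0.988 in Δ/+ and 0.938, 0.890, 0.763 and 0.760 in Δ/DN cultures 1 to 4. The SD of the changes, which uses no reference, was 1.58, 1.63 and 1.65 in Δ/+ and 1.62, 1.57, 1.37 and 1.35 in Δ/DN. The means were 0.961 ± 0.031 (SD, n = 3) and 0.838 ± 0.090 (SD, n = 4), and the groups overlapped (two-sided exact permutation test, p = 0.114, smallest possible p 0.0571). Both low slopes belonged to library set 3. Within set 2 the difference was -0.05 in place of -0.12 (exact permutation p = 0.400), and genotype and set could not be told apart in set 3, where all pairs were Δ/DN.

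Markers of other cell types were read beside these results. The 18 neutrophil markers summed to 149 to 195 CPM without and 247 to 312 CPM with LPS in Δ/+, and to 193 to 1227 CPM and 295 to 1611 CPM in Δ/DN. Mast cell and basophil markers summed to 22.6 to 26.7 CPM without and 20.3 to 26.9 CPM with LPS in Δ/+. In Δ/DN they summed to 25.1 to 56.7 CPM and 33.8 to 66.8 CPM, apart with LPS only. Eosinophil markers summed to 212 to 279 CPM without and 282 to 373 CPM with LPS in Δ/+. In Δ/DN they summed to 107 to 301 CPM and 98.2 to 260 CPM, apart with LPS only. Monocyte markers summed to 514 to 825 CPM without and 491 to 600 CPM with LPS in Δ/+, and to 527 to 695 CPM and 326 to 483 CPM in Δ/DN, apart with LPS only. T and NK cell markers summed to 155 to 209 CPM and 283 to 312 CPM in Δ/+, and to 86.8 to 154 CPM and 141 to 249 CPM in Δ/DN, apart in both states. Plasmacytoid dendritic cell markers summed to 132 to 161 CPM without and 579 to 632 CPM with LPS in Δ/+. In Δ/DN they summed to 118 to 232 CPM and 371 to 544 CPM, apart with LPS only. Haematopoietic progenitor markers summed to 25.4 to 27.0 CPM without and 21.9 to 25.8 CPM with LPS in Δ/+. In Δ/DN they summed to 27.5 to 49.3 CPM and 28.9 to 55.1 CPM, apart in both states. B cell markers summed to at most 3.97 CPM and erythroid markers to at most 2.78 CPM in any library. In bulk samples fewer cells of a type and less RNA per cell cannot be told apart, and the part of cell composition in the differences was not tested.

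No gene of 11 of the 12 marker lists was called for the difference by edgeR, with DESeq2 calling 2 neutrophil, 1 conventional dendritic cell and 1 macrophage marker and 0 to 5 genes a list at an unadjusted p under 0.05. The exception was Pecam1, an endothelial adhesion molecule also made by leukocytes, in the stromal and endothelial list (1.11 ± 0.20, adjusted p = 0.0373). It fell in Δ/+ from 8.37, 10.8 and 6.95 CPM to 3.73, 6.03 and 4.32 CPM and was not called in Δ/DN, at 3.51 to 8.29 CPM over both states. Without culture 3 edgeR also called 2 neutrophil, 1 monocyte and 1 T and NK cell marker higher and 2 conventional dendritic cell markers lower.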

How the data were processed

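RNA was sequenced from BMDC cultures, and per-gene read counts deposited by the authors were used, 1 table per library with 50554 genes. Per the submitters' processing notes the tools included Trimmomatic 0.33, HISAT2 2.2.1 and featureCounts, with builds mm39 and GRCm39; their settings, and whether counting used strand, are not given in the sources used here. Genes overlapping an antisense gene or with near-identical copies are therefore uncertain. Ribosomal RNA was depleted, per the labels' protocols.

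The 14 paired libraries were fitted together in edgeR 4.0.16 (R 4.3.3; quasi-likelihood F test, robust; TMM; filterByExpr with a minimum count of 10; 20834 genes kept) with 1 term per culture and 1 LPS effect per genotype, leaving 5 residual degrees of freedom. Adjusted p-values are Benjamini-Hochberg over all genes tested and calls need one under 0.05. A standard error is the size of the log2 change divided by the square root of F, so it is approximate for low counts. Levels are CPM after TMM, and changes of single cultures are log2 CPM with a prior count of 2. The names tie the US and LPS library of a culture, and deviations from group means correlated within each of the 7 pairs (Pearson 0.135 to 0.428), so the pairs were taken as real.

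Named genes are the 14 of smallest p in each direction (symbol not a predicted name, mean of at least 1 CPM), up to 4 called members of each list or else the 1 of smallest p, the 6 opposite genes of smallest p, and 15 set genes. Other genes named for a list without culture 3 were chosen after their values were seen. Members, lists and tests were chosen with earlier results of these data known. Alternatives were RLE size factors, no low count filter, DESeq2 1.42.0, no culture term, library set 2 only, an LPS-by-set term, limma 3.58.1 on per-culture changes, and leaving out each culture. Promoter sequences are from RefSeq (GRCm38.p6).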

Additional observations from a re-analysis of the deposited data

Results flagged for a closer look

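Single cultures stood far from the others in 7 of 70 named genes tested among the 4 Δ/DN cultures, where chance alone marks about 1 in 20 groups. Δ/DN culture 3 had the low LPS change in 4 of them: 5.54 for Il1b (8.04 to 8.21 in the other 3 cultures), 4.61 for Cxcl10 (7.60 to 8.13), 4.35 for Cd40 (5.87 to 6.06) and 2.02 for Cd14 (3.54 to 3.68). Culture 1 had the high change of Gbp8, a guanylate-binding protein, at 1.57 (0.92 to 0.94). Culture 4 had the low change of Batf, an AP-1 factor, at 1.78 (2.19 to 2.23), and the high change of Pmaip1, a pro-apoptotic p53 target, at 0.97 (0.46 to 0.48).

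The LPS change differed between genotypes by the test of the difference in 106 genes. Among named genes, the Δ/DN change less the Δ/+ change (log2) was positive for B3gnt7 1.21, Etl4 1.74, Flnc 1.15, Myo7a 0.79, Rcc2 0.78, Lima1 0.99, Nedd4 0.74, Arrb1 0.90, Polr1a 0.79, Mbp 0.99, Tcp11l1 1.10, Chsy1 0.82, Tanc2 0.89, Cnr2 1.42, Pdcd1lg2 0.71, Vegfa 0.89, Rrp12 0.82 and Pecam1 1.11. It was negative for Penk -3.16, Creb3l1 -1.83, Emilin1 -1.70, Rnu2-10 -1.23, Il33 -1.80, Col5a3 -1.95, Acp5 -1.28, Hamp -3.21, Mmp2 -1.17, Cp -1.30, Dtx2 -1.14, Clec10a -1.10, Igsf8 -1.08, Acvr1b -0.88 and Snord3a -0.90.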

How the results depend on the processing

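The pairing of libraries by culture decided the count of 106 genes: with no replicate block it was 0 (14 libraries) and 1 (15 libraries with library set; Emilin1), and the LPS counts within each genotype stayed within 1.5 times. With the block kept, RLE size factors gave 157 (72.6% higher in Δ/DN against 60.4%; the median difference over all genes moved by -0.0047), limma 128, an LPS-by-set term 65, DESeq2 556, no low count filter 1007 and library set 2 alone 912; the cause of these moves was not tested. Leaving out each culture gave 6 to 894. Of the 106 genes, 85 and 87 were at an unadjusted p under 0.05 in the fits with no replicate block, and all 106 in the others. Of the 33 named genes called, 33 stayed called with RLE, no filter, DESeq2 and limma, 31 in set 2, 22 with the LPS-by-set term, 4 to 33 over the leave-outs, and 0 and 1 with no replicate block. LPS-responsive genes numbered 8499 to 11341 in Δ/+ and 9370 to 11191 in Δ/DN over all alternatives. The slope difference stayed negative, at -0.16 to -0.05. Low US counts limit Hamp, Il10 and Ifnb1.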
